A study of Caenorhabditis elegans with 2 samples.

Results

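The nuclear genome of the nematode Caenorhabditis elegans holds 336 annotated tRNA genes on its autosomes, and 191 of them (56.8%, 95% exact Clopper-Pearson interval 51.4 to 62.2%) lay within 500 bp of a listed region from chromatin immunoprecipitation of the paired-domain protein NPAX-4 in late embryos. These 191 genes were selected on the binding data themselves: each had the summit of a region within 500 bp of its gene body in the authors' relaxed list of both replicates together, called the joint list here. The authors name that list peaks and background, so it holds background regions by design, and a region in it is not by itself a binding site. Of the 191, 71 (37.2%, 30.3 to 44.5%) also had a summit in the list that the authors cut by the irreproducible discovery rate (IDR) and label optimal, and 120 did not. The remaining 145 autosomal tRNA genes had no region. For comparison, 2.49% of the 10603 autosomal regions of the joint list were in the optimal list. Among the 8960 autosomal genes of any biotype with a joint summit within 500 bp, 6.41% had an optimal one, and 21.9% of 40868 autosomal genes had a joint summit at all. Since the rule used these lists, the shares describe the set and carry no test.

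The worms were of strain OP493, which carries the transgene wgIs493 (NPAX-4 with C-terminal GFP and FLAG) together with the mutation unc-119(tm4063) on chromosome III, per the labels. Whole hermaphrodite late embryos were taken 4 h after egg bleaching, and chromatin was immunoprecipitated with an antibody against GFP and sequenced. The 2 samples are biological replicates of this single condition, so there is no second genotype, strain or treatment to set them against. The shared control library was not analysed here. Whole embryos mix all cell types, so a weak signal in many cells and a strong signal in few cells cannot be told apart. No list of defining embryonic markers was checked, because binding regions give no expression level.

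Transfer RNAs carry amino acids to the ribosome, and an isotype is the group of tRNAs that carry the same amino acid. Their genes are transcribed by RNA polymerase III from promoters inside the gene, the A box near the 5′ end and the B box farther in. The B box is bound by the assembly factor TFIIIC, and transcription ends in a run of T in the DNA strand that reads as the transcript. NPAX-4 belongs to the Pax family, whose paired domain binds DNA.

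The sequences below show what the strongest genes, the genes on either side of the optimal threshold and a gene without the B box word looked like (WBcel235, the assembly also called ce11, from RefSeq's genome; 5′ to 3′ of the tRNA, with capitals for the B box word GGTTCGA or, where it was absent, its shorter form GTTCNA). F57F5.t1, an isoleucine gene at chrV:12002176-12002260 on the plus strand, had the highest signal of all 191. K06A4.t1 (alanine, chrV:9503562-9503633, plus) and ZC455.t1 (serine, chrV:12780386-12780467, minus) were among the 10 strongest. F28F8.t2 (histidine, chrV:15554030-15554101, plus) was among the 4 weakest of the optimal list, and W03C9.t1 (valine, chrII:11959375-11959447, plus) was the strongest gene outside it. Y69A2AR.t2 (glutamate, chrIV:2639809-2639880, minus) held no GTTCNA.
F57F5.t1: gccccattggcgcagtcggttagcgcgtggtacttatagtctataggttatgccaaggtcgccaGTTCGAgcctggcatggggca
K06A4.t1: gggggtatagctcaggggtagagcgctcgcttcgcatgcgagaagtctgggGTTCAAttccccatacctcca
ZC455.t1: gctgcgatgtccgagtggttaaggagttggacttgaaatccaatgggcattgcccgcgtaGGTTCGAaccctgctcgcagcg
F28F8.t2: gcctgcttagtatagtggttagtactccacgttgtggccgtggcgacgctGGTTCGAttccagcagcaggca
W03C9.t1: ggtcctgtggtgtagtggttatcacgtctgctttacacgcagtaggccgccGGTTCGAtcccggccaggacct
Y69A2AR.t2: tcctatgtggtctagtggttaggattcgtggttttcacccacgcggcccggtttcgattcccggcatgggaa

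Another 3 sequences are shown because identical copies of each lay on both sides of the optimal threshold. T23F1.t2 (proline, chrV:15465225-15465296, minus) stands for 24 nuclear genes of the same sequence, of which 11 were autosomal. Y39A1A.t1 (threonine, chrIII:10624742-10624813, minus) stands for 15 genes, 8 of them autosomal, and F15B9.t1 (alanine, chrV:13003509-13003580, minus) likewise for 15 and 8. The single-copy K06A4.t1 and F15B9.t1 differed at 6 of their 72 bases.
T23F1.t2: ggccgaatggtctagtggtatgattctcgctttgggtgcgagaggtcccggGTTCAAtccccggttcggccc
Y39A1A.t1: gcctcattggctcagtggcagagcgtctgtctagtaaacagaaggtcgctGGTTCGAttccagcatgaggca
F15B9.t1: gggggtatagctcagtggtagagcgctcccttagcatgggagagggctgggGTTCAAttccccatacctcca

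The B box word had much the same share in optimal-list genes, other members and genes without a region. GGTTCGA occurred on the coding strand of 45 of 71 genes in the optimal list (63.4%, 51.1 to 74.5%), 78 of 120 other members (65.0%, 55.8 to 73.5%) and 95 of 145 genes without a region (65.5%, 57.2 to 73.2%). The shorter GTTCGA, which GGTTCGA contains, occurred in 70.4%, 70.8% and 73.8% of the same groups, and GTTCNA, which contains it in turn, in 94.4%, 98.3% and 93.1%. In windows of 72 bp at the summits of 10394 autosomal joint regions away from tRNA genes, read on both strands, the shares were 0.789% for GGTTCGA, 2.55% for GTTCGA and 11.3% for GTTCNA. The intervals of the 3 gene groups overlap for each of these words. The words describe letters in these windows and do not show which factor was bound.

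The A box word and the terminator run showed no larger differences in optimal-list genes against other members. A restricted A box word, TNGCNNA, was searched for in the first 25 bases. It was found in 60.6% of genes in the optimal list, 59.2% of other members and 52.4% of genes without a region. The word allows only C after TNG, so other forms were not counted, and a gene without it was not shown to lack an A box. TNGCNNA occurred in 40.2% of the summit windows read on both strands. TTTT lay within 20 bases after the 3′ end of 69 of 71, 120 of 120 and 140 of 145 genes. Median GC content was 58.3% in all 3 groups. Members in the optimal list without GTTCNA numbered 4, named here after their values were seen: T15B12.t1, Y22D7AL.t3 and F14B6.t2, which carry methionine, and F14B4.t2, which carries proline. The 3 methionine genes are identical in sequence. Outside the list, their copy F14B6.t1 (joint signal 54.9) and Y69A2AR.t2 also lacked the word. T15B12.t1 was among the 10 strongest members.

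Signal is the value the authors' peak caller gave each region, on a scale that is not stated, and it serves here only to describe and rank regions within a list. In the joint list it ran over 76.4 to 239 in the 71 optimal-list genes (median 108.6) and over 28.9 to 74.5 in the 120 other members (median 45.9). These ranges do not overlap by construction, because the optimal list is made up of the 354 top-ranked of the 12454 joint regions. The median over all autosomal regions was 34.8 in the joint list, and it was 112 among autosomal regions of the optimal list. Joint signal was close to the sum of both replicates' signals, with a median ratio of 1.01 in optimal-list genes and 0.994 in other members with a region in both replicates.

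F57F5.t1, 1 of 10 members with an annotated tRNA intron, led the set with a joint signal of 239, and had 109 in replicate 1 and 132 in replicate 2. T21B4.t1, an isoleucine gene on the opposite strand in an intron of the collagen gene col-85 (chrII:12494741-12494814), followed with 222, from 116 and 104.5 in the replicates. F56F3.t1, an intergenic arginine gene (chrIII:4470886-4470958), had 206, with 105 and 97.8. The summits of these 3 genes lay inside the tRNA gene, at 27, 14 and 26 bp from its 5′ end.

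C37A2.t1 (cysteine, chrI:6781803-6781874) lay in an intron of cye-1, which encodes cyclin E, and had a joint signal of 193, with 90.5 and 101 in the replicates. B0523.t1 (tryptophan, chrIII:8678497-8678568) lay in an intron of fli-1, a flightless homolog, with 186 jointly and 102 and 82.9 in the replicates. T15B12.t1 (methionine, chrIII:5294979-5295050) had 179.6, with 100.2 and 79.1. The other genes of the top 10 were F35H8.t1 (arginine, chrII:9566241-9566313, joint signal 178), K06A4.t1 in an intron of the SWEET family gene swt-5 (169), ZC455.t1 (168) and F33G12.t1 (isoleucine, chrII:5032771-5032844, joint signal 159). All 10 had a region in both replicates, and their signals were 80.8 to 116 in replicate 1 and 66.9 to 132 in replicate 2. The strongest gene of chromosome IV, F29C4.t1 (arginine, in an intron of the collagen gene col-99), came below them with 148.

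Close to the threshold the members inside and outside the optimal list were alike in signal. The 4 weakest inside it were Y73F8A.t2 (tryptophan, joint signal 80.4), F28F8.t2 (histidine, 79.2), ZK622.t2 (glutamate, 76.6) and Y43D4A.t2 (glycine, 76.4). The 4 strongest outside it were W03C9.t1 (valine, joint signal 74.5), W02G9.t2 (threonine, 73.5), Y43D4A.t1 (glycine, 71.0) and K07C10.t1 (lysine, 70.0). K07C10.t1 was uneven between the replicates, with 22.2 in replicate 1 and 47.0 in replicate 2. W03C9.t1 had 43.5 and 31.3 in the replicates, which is within the spread of the 4 weakest optimal-list genes, at 35.3 to 47.5 in replicate 1 and 29.5 to 44.6 in replicate 2.

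**Figure D1:**
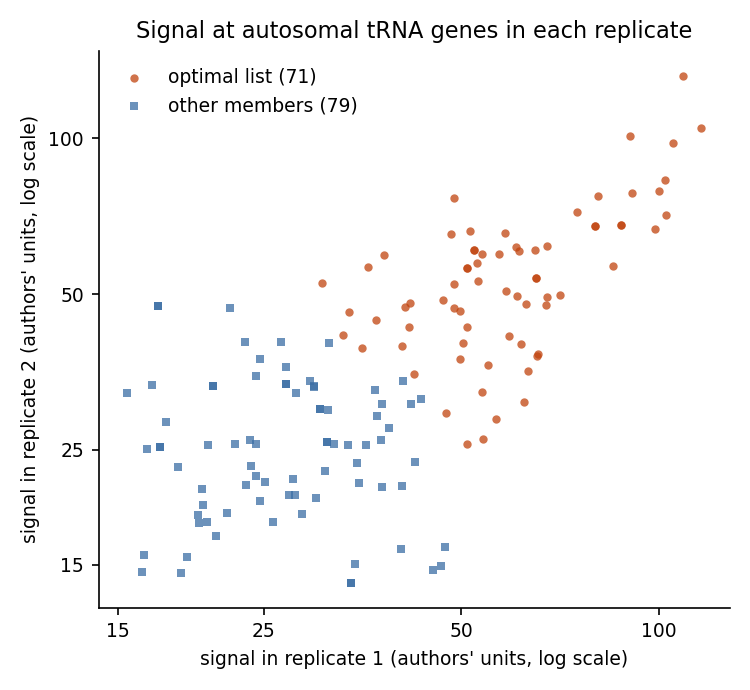
Signal in replicate 1 (x axis) and replicate 2 (y axis), in the authors' units on log axes, for the 71 optimal-list genes and the 79 other members with a region in both replicates; each point is a gene, and genes that share a region coincide. Optimal-list genes occupy the upper right, from 30.7 in replicate 1 and 25.7 in replicate 2 upward, and the other members the lower left, with overlap between them.

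Optimal-list genes had a region in both replicates more often than other members did. The optimal list was cut on IDR, so presence in both replicates is not independent of that choice. All 71 optimal-list genes had a summit within 500 bp in each replicate's own list. Of the 120 other members, 79 (65.8%, 56.6 to 74.2%) had a region in both replicates, 16 in replicate 1 alone, 24 in replicate 2 alone and 1 in neither. Replicate 1 thus held 95 of these 120 (79.2%) and replicate 2 held 103 (85.8%). The gene in neither, F33D11.t2 (arginine, in col-54, joint signal 32.3), is named after its values were seen. Replicate 1 gave optimal-list genes a signal of 30.7 to 116 (median 57.0) and the other members 15.5 to 47.3 (median 27.1). Replicate 2 gave 25.7 to 132 (median 52.9) in optimal-list genes and 13.9 to 47.5 (median 23.7) in other members. In both replicates the 2 groups overlapped, as they cannot in the joint list.

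Each replicate's list was much longer than the optimal list, with 19207 and 18799 regions. The 354 top-ranked regions of replicate 1 included those of 61 of 71 optimal-list genes and 6 of 120 other members, and those of replicate 2 included 56 of 71 and again 6 of 120. In both at once there were 48 optimal-list genes and 0 other members. F11H8.t1 (threonine, 40.7 and 39.7 in the replicates) and ZK622.t2 (35.3 and 39.3) were in the optimal list without being among the 354 top-ranked of either replicate. Across genes with a region in both replicates, Spearman's rho between replicate signals was 0.699 for all 150 members, 0.545 for the 71 optimal-list genes and −0.03 for the 79 other members. Genes are not independent replicates, some share a region, and the groups were divided on joint signal, so these values are descriptions.

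The summit fell on the tRNA gene in a larger share of optimal-list genes than of other members. The summit of the joint list lay between the ends of the tRNA gene in 38 of 71 optimal-list genes (53.5%, 41.3 to 65.5%) and in 41 of 120 other members (34.2%, 25.8 to 43.4%). It lay upstream in 15 and 44 genes, and downstream in 18 and 35. The summit was within 100 bp of the 5′ end in 84.5% of optimal-list genes (74.0 to 92.0%) and 64.2% of other members (54.9 to 72.7%). The intervals of this last pair do not overlap, while those of the share between the gene's ends do, and they cover counting error only. The last pair's intervals did overlap with summits within 250 bp (76.7 to 93.9% against 61.5 to 79.2%). They also overlapped with the nearest summit, with the optimal list cut at its median signal and where the region overlaps the gene. They stayed apart with summits within 1000 bp and without either replicate. Genes that share a region were counted separately. The median position from the 5′ end gave no stable order: it was 37 bp in optimal-list genes and 26.5 bp in other members, but 20 and 32.5 bp without replicate 1, 40 and 40 bp without replicate 2, and 18 and 35 bp with the optimal list cut at its median signal. Without a replicate, the 354 top-ranked regions of the other replicate's own list stood in for the optimal list.

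**Figure D2:**
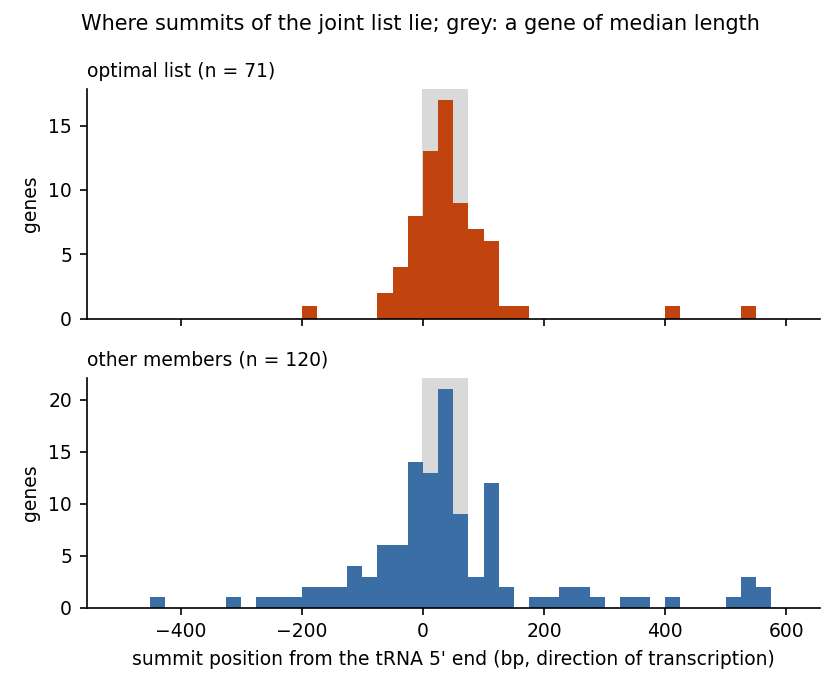
Distance of the joint summit from the tRNA 5′ end in the direction of transcription (x axis, bp) against the number of genes (y axis), for the 71 optimal-list genes above and the 120 other members below; the grey band is a gene of median length. Summits of the optimal list gather over the gene (38 of 71 between its ends), and those of the other members spread farther to both sides (41 of 120 between the ends).

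The summits of the replicates also lay closer together at strong members. Their distance was at most 135 bp in optimal-list genes (median 35 bp) and at most 424 bp in the 79 other members with a region in both (median 82 bp). It was within 50 bp in 43 of 71 optimal-list genes (60.6%, 48.2 to 71.97%) and in 28 of those 79 other members (35.4%, 25 to 47.0%). The optimal list was cut on IDR from these same replicates, and the joint list holds background regions. The difference in distance is therefore not independent of how the groups were made. In 3 optimal-list genes, named after their values were seen, the summit was over 100 bp from the gene body: F42A10.t2 and K11H3.t1, both serine genes beside another tRNA gene nearer the summit, and T22F3.t3, a proline gene at 477 bp from it.

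By isotype, the share of members in the optimal list ran from all to none. Both tryptophan members were in it, B0523.t1 (186) and Y73F8A.t2 (80.4), and 8 of 11 arginine members (72.7%, 39.0 to 94.0%). Cysteine had 3 of 5, methionine 4 of 7, lysine 8 of 17, serine 5 of 11, threonine 6 of 14 and glutamate 5 of 12. Histidine and valine each had 2 of 5, proline 5 of 14, alanine 4 of 13, and aspartate and isoleucine each 3 of 10. Glutamine had 2 of 7, glycine 4 of 15, leucine 3 of 14, phenylalanine 1 of 5 and tyrosine 1 of 6. Asparagine had 0 of 7 (0 to 41.0%), and the single member of undetermined isotype was also outside the list. Most of these intervals are wide and include the 37.2% of all members. That of arginine, from 39.0%, lies above this value, as 1 of 20 isotypes with members. The counts above are of genes, and genes of an isotype can share a region. Counted by distinct region, proline had 5 of 10, serine 3 of 9 and glutamate 5 of 11. Glutamine then had 2 of 6, glycine 4 of 13 and phenylalanine 1 of 4, and the other isotypes kept their counts.

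The 11 arginine members had joint signals of 32.3 (F33D11.t2) to 206 (F56F3.t1), with a median of 99.6, and lay on chromosomes I to IV. The 8 in the optimal list had 88.8 (F08G5.t1) or more, where the lowest signal of that list was 76.4. Of these 8, 7 belonged to 4 groups of identical genes and C15C6.t1 was of single copy. They included M57.t1 in unc-33, F47G6.t1 in spe-15 and Y92H12A.t1 in src-1. The other 3, F14B4.t1 (66.0), F13G11.t1 (47.4) and F33D11.t2, covered the range of the asparagine genes. The 7 asparagine members had 32.6 (F57G8.t1) to 62.1 (Y116F11A.t1), with a median of 45.2, and all were copies of the same sequence. That sequence also had 5 X-linked copies, which are not members, and 2 of those were in the optimal list. Arginine did not have the highest median nor asparagine the lowest: tryptophan had 133 over 2 members, and aspartate and phenylalanine had 38.7 and 40. Y116F11A.t1 had 38.9 in replicate 1 and 27.6 in replicate 2, and F57G8.t1 had 16.4 and 15.7. Of the 7, F28F5.t1 in lim-8 and ZK507.t1 in dos-1 had no region in replicate 1.

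**Figure D3:**
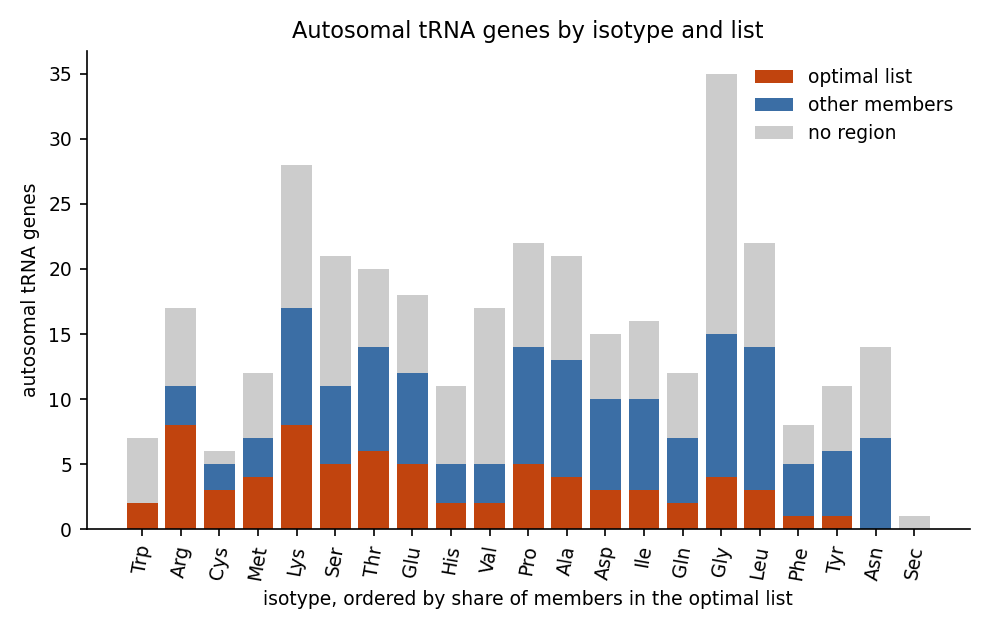
Number of autosomal tRNA genes (y axis) of each isotype (x axis, ordered by the share of members in the optimal list), divided into optimal-list genes, other members and genes without a region; the member of undetermined isotype is not drawn. Tryptophan and arginine have most of their members in the optimal list (2 of 2 and 8 of 11), and asparagine has none of its 7.

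The strongest member of an isotype was in the optimal list for every isotype with 4 or more members except asparagine. Beside those already named, T23F1.t1 led lysine (joint signal 155), F28F8.t3 aspartate (147.5, in acr-18), Y39B6A.t9 phenylalanine (126) and Y104H12A.t1 glutamate (121, in nhr-41). F22G12.t1 led valine (116), Y82E9BR.t1 glycine (115, in lelo-2), T22F7.t1 tyrosine (114) and W09G10.t3 threonine (113). The region of W09G10.t3 was shared with the lysine gene W09G10.t2, which lay nearer the summit (40 against 53 bp). C04A2.t1 led leucine (107), W09G10.t1 histidine (107, in col-72) and Y49E10.t1 glutamine (104.9, in tat-1, which encodes a phospholipid translocase). In replicate 1 these 11 genes had 48.2 to 87.5 and in replicate 2 they had 47.7 to 76.5. They were picked for high joint signal, which is close to the sum of both replicates' signals. High values in the replicates therefore follow from that choice.

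Most members had at least 1 nuclear tRNA gene of identical sequence. Such a copy existed for 60 of 71 optimal-list genes (84.5%, 74.0 to 92.0%), 94 of 120 other members (78.3%, 69.9 to 85.3%) and 96 of 145 genes without a region (66.2%, 57.9 to 73.9%). Put the other way, 154 of 250 autosomal genes with a copy had a region (61.6%, 55.3 to 67.7%), against 37 of 86 single-copy genes (43.0%, 32.4 to 54.2%). Without replicate 2, the 354 top-ranked regions of replicate 1's own list stood in for the optimal list. A copy then existed for 82.1% of genes at those regions and 81.3% of other members, so the small difference was mostly lost. Among members, 60 of 154 with a copy (39.0%) and 11 of 37 of single copy (29.7%) were in the optimal list. How reads that fit several copies were placed is not given in the sources used here, and its part in these shares was not tested.

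Identical genes did not have identical signals. Of 34 groups of identical genes with 2 or more members, 26 had members both inside and outside the optimal list, 3 had all inside and 5 none. Members are autosomal, so X-linked copies do not enter these counts. The proline copies of T23F1.t2 had joint signals from 35.2 to 155 over 7 members, with 1 in the optimal list. That 1, T23F1.t2, shared its region with the lysine gene T23F1.t1, which lay nearer the summit (25 against 42 bp). A signal in a shared region cannot be assigned to 1 of its genes. The isoleucine copies of T21B4.t1 had 31.4 to 222 over 7 members, also with 1 in the optimal list. The 9 glycine members of the largest group, which has 29 nuclear genes, had 34.1 to 115, with 3 in the optimal list. A lysine group of 10 members had 37.4 to 123, with 5. The alanine copies of F15B9.t1 and the threonine copies of Y39A1A.t1 had 6 members each, with 3 and 2 in the optimal list. The members of a group share every base of the annotated gene; their flanks were not compared.

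**Figure D4:**
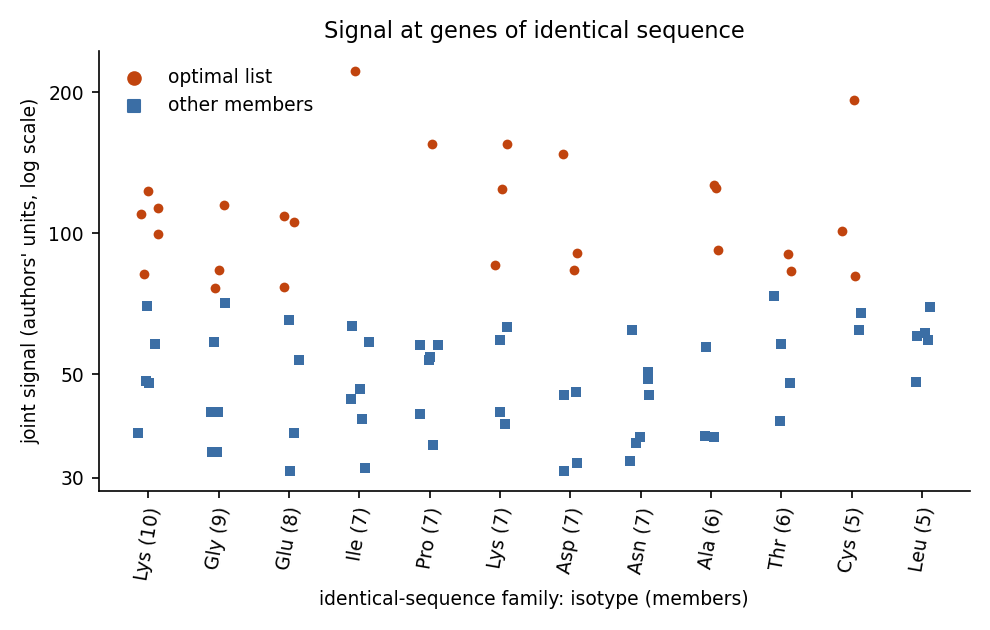
Joint signal (y axis, authors' units, log scale) of members in each of the 12 groups of identical genes with 5 or more members (x axis, isotype with the number of members). In 10 of the 12 groups members fall both inside and outside the optimal list, and the autosomal members of the asparagine and leucine groups all lie outside it. X-linked copies are not drawn. The asparagine sequence had 5 of them, 2 in the optimal list, and the leucine sequence had 0.

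Most members lay in the intron of a protein-coding gene, with no stable order between optimal-list genes and other members. The share inside a protein-coding gene was 56.3% in the optimal list (40 of 71, 44.0 to 68.1%), 60.0% in other members (72 of 120, 50.7 to 68.8%) and 56.6% in genes without a region (82 of 145, 48.1 to 64.8%). All but 3 of the 112 members inside a host gene were intronic. The exceptions, named after their values were seen, overlapped exons of grl-26 (K02D7.t1, optimal list), of W02G9.3 (W02G9.t2) and of mdf-2, a spindle checkpoint gene (Y69A2AR.t2). The tRNA gene ran along the host's strand in 23 optimal-list genes and 46 other members, and against it in 17 and 26. Members inside a host were in the optimal list in 35.7% of cases (26.9 to 45.3%) and members outside any host in 39.2% (28.4 to 50.9%).

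The 112 members inside a host lay in 96 host genes. A host held 2 or more members in 16 cases, and 38 hosts held an optimal-list gene. In acr-18, a member of the nicotinic acetylcholine receptor family, both F28F8.t3 (147.5) and F28F8.t2 (79.2) were in the optimal list. The same held in twk-48, a TWK potassium channel gene, where K11H3.t1 and K11H3.t2 shared a region of signal 108.6. A 5′ end of a protein-coding gene lay within 500 bp of the tRNA 5′ end in 21 of 71 optimal-list genes (29.6%, 19.3 to 41.6%), 23 of 120 other members (19.2%, 12.6 to 27.4%) and 25 of 145 genes without a region (17.2%, 11.5 to 24.4%), with overlapping intervals. Other small RNA genes were rarely near: M01E5.t1 in the optimal list had the spliced leader gene sls-2.9 at 132 bp, and C16D9.t4 outside it a snoRNA gene at 324 bp.

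Genes with another tRNA gene close by made up a smaller share of optimal-list genes than of other members. Another tRNA gene lay within 1 kb of 16 of 71 optimal-list genes (22.5%, 13.5 to 34.0%), 47 of 120 other members (39.2%, 30.4 to 48.5%) and 38 of 145 genes without a region (26.2%, 19.3 to 34.2%). Of clustered members, 16 of 63 were in the optimal list (25.4%, 15.3 to 37.9%), against 55 of 128 members that stood alone (43.0%, 34.3 to 52.0%). Clustered genes can share a region, so they are not independent: with each of 173 distinct regions counted once, 16.7% of 66 optimal regions (8.63 to 27.9%) and 31.8% of 107 other regions (23.1 to 41.5%) lay at clustered genes. The intervals overlap in each of these pairs, and most of the difference was lost without replicate 1, where 27.4% of genes among the 354 top-ranked regions and 29.3% of other members were clustered. Without replicate 2 the shares were 22.4% and 40.7%. With the summit required between the gene's ends they were 15.8% and 20.9%, and with a gap of 500 bp 15.5% and 24.2%.

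Autosomal clusters were small. They numbered 46 with 101 genes, of which 39 were pairs, and the largest had 4 genes. Of the 35 clusters with a member, 11 held an optimal-list gene and 3 held members both inside and outside the list. Among 19 pairs with both genes as members, 15 shared a single region and 4 had a region each. Both genes were in the optimal list in 5 of the 19, and neither in 13. The convergent pair T23F1.t1 (lysine) and T23F1.t2 (proline), 66 bp apart, shared a region of signal 155, with its summit between the genes at 25 and 42 bp from them. The serine genes F42A10.t1 and F42A10.t2, 105 bp apart, shared a region of 149 whose summit lay 180 bp from F42A10.t2.

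A single pair had its genes on either side of the threshold. The glycine genes Y43D4A.t2 and Y43D4A.t1 are identical, run in the same direction and stand 834 bp apart (chrIV:16776088-16776159 and chrIV:16775182-16775253). Y43D4A.t2, in the optimal list, had a joint signal of 76.4, with 42.4 and 35.1 in the replicates and its summit inside the gene. Y43D4A.t1, outside it, had 71.0, with 37.0 and 32.6 and its summit 30 bp past the gene.

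By chromosome, the share of tRNA genes in the optimal list was highest on III, with 20 of 64 (31.2%, 20.2 to 44.1%). It was 12 of 66 on I (18.2%), 13 of 57 on II (22.8%), 14 of 71 on IV (19.7%) and 12 of 78 on V (15.4%, 8.21 to 25.3%). Any joint region was present at 50 to 66.7% of the tRNA genes of each autosome. The intervals of all 5 autosomes overlap, so the order among them is not resolved by these counts.

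The X chromosome holds 276 tRNA genes, and the shares of tRNA genes with a region had overlapping intervals on the autosomes and on X. A region lay within 500 bp of 56.8% of autosomal genes (51.4 to 62.2%) and 58.7% of X-linked genes (52.6 to 64.6%). An optimal region did so for 21.1% of autosomal genes (16.9 to 25.9%) and 25.4% of X-linked genes (20.3 to 30.9%). Autosomal members reached a joint signal of 239 (median 59.3), and X-linked genes with a region reached 328 (median 64.0). The surroundings differed more: 57.7% of autosomal tRNA genes (52.3 to 63.1%) but 34.8% of X-linked ones (29.2 to 40.7%) lay inside a protein-coding gene, and 30.1% (25.2 to 35.3%) but 48.9% (42.9 to 55.0%) had another tRNA gene within 1 kb.

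**Figure D5:**
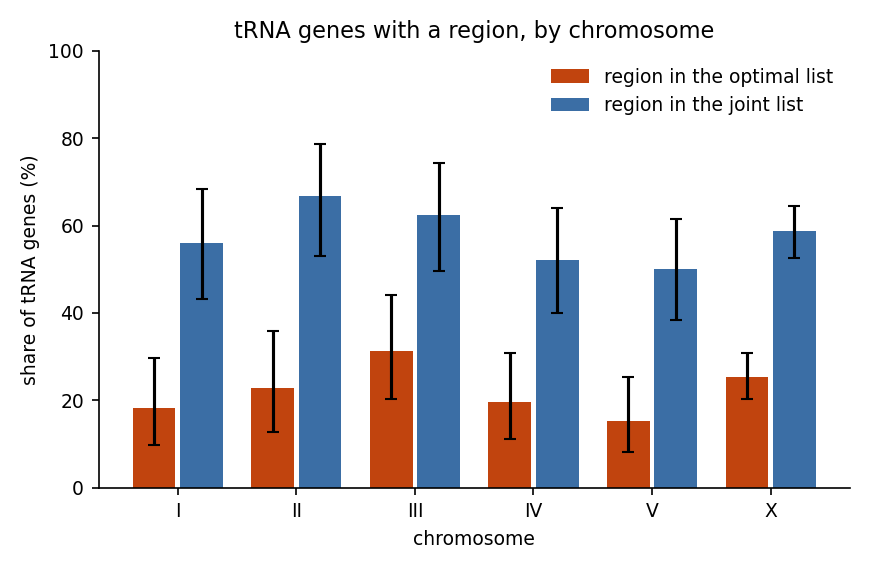
Share of tRNA genes (y axis, percent) on each chromosome (x axis) with a region in the optimal list and with a region in the joint list; error bars are 95% exact Clopper-Pearson intervals over genes. Optimal shares run from 15.4% on V to 31.2% on III among autosomes, with 25.4% on X, and the intervals overlap.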

How the data were processed

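Regions from 2 chromatin immunoprecipitation libraries were taken as the authors deposited them: relaxed lists per replicate and for both replicates together, and a list thresholded on IDR, per the deposited file descriptions. Each region carries a signal value, given by the authors' caller with its scale not stated, and a deposited −log10 q value that was read but not used. For the aligner, caller, versions, IDR threshold and treatment of multiply mapping reads, the details were not given in the sources used here. Depth is unknown, because the deposited lists give no read counts, so precision is given only as 95% exact Clopper-Pearson intervals over genes or regions. The lists on ce10 were not used.

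Gene models came from Ensembl release 115 on WBcel235, which is the assembly ce11, and the isotype of all 612 nuclear tRNA genes from RefSeq's product names. A gene was a member when a summit of the joint list lay within 500 bp of its body, and its region was the one of highest signal. A cluster joins tRNA genes at most 1 kb apart. Identical genes share every base of the annotated gene. The members and lists were chosen with earlier results of these data known, and no test was run. Named genes were the 10 members of highest joint signal, the 4 weakest optimal-list members, the 4 strongest others, the strongest of each autosome and of each isotype with 4 or more members, and any optimal-list member without a region in a replicate, of which there were 0. Genes named beyond that rule were chosen after their values were seen. Coordinates are 1-based. The assignment of summits to genes was tested on simulated data. Alternatives covered distance, threshold, cluster gap, B box word, counting unit, copies and each replicate alone. Intervals came from scipy 1.17.1, tables from pandas 2.3.3 with numpy 2.4.6, and plots from matplotlib 3.10.9, all under Python 3.11.15.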

Additional observations from a re-analysis of the deposited data

How the results depend on the processing

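Of 208 alternative values, 171 stayed within the interval of the reported value (counts and differences within 1.5 times), 30 moved and 7 differences changed sign. Differences are optimal-list genes minus other members, in percentage points for shares. Where a replicate was left out, the 354 top-ranked regions of the other replicate's own list stood in for the optimal list. The share inside a protein-coding gene changed sign, to 1.52 with summits within 1000 bp, 0.723 with the optimal list cut at its median signal and 0.212 per distinct region, and lay at 0.922 to 1.98 without a replicate; it was −6.75 within 250 bp, −6.92 with the summit between the gene's ends and −7.89 where the region overlaps the gene. The clustered share differed by −5.14 with the summit between the ends, −8.67 with a gap of 500 bp and −18.3 to −1.87 without a replicate, the smallest difference being without replicate 1. The difference in identical copies was 0.796 with the summit between the ends and 0.789 to 8.34 without a replicate. The difference in median summit position was −17 bp with the list cut at its median signal and −12.5 to 0 bp without a replicate. The shares with the summit between the gene's ends and within 100 bp of the 5′ end kept their differences within 1.5 times under every alternative run for them; requiring the summit between the ends fixes both and was not applied to them.

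Requiring the summit between the gene's ends left 81 members, 38 of them in the optimal list (46.9%); among the other members the clustered share was then 20.9% and the share with an identical copy 86.0%. Cutting the optimal list at its median signal left 27 optimal-list members (14.1%). With clusters joined at 500 bp the clustered share of other members was 24.2%, and at 5 kb it was 38.0% in optimal-list genes and 50.8% in others. Without replicate 1 the clustered share was 27.4% in genes at the 354 top-ranked regions of replicate 2 and 29.3% in other members. Without replicate 2 it was 22.4% in genes at the 354 top-ranked regions of replicate 1 and 40.7% in other members. Alternatives added after seeing the data were counting distinct regions, leaving out genes with a copy (optimal share 29.7%), keeping only members with a region in both replicates (47.3%), the B box word GTTCNA, and the differences and summit shares above. The cause of each shift was not tested. No paired analysis was possible because there is 1 group. Depth limits precision in a way these lists do not show, and the replicates feed the joint list, so their values are not independent of it.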

Other observations

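Predicted tRNA pseudogenes, annotated separately from the tRNA genes, had a region in a smaller share of cases. A joint region lay within 500 bp of 191 of 336 autosomal tRNA genes (56.8%, 51.4 to 62.2%) and of 46 of 180 autosomal tRNA pseudogenes (25.6%, 19.4 to 32.6%). An optimal region lay near 71 of 336 tRNA genes (21.1%, 16.9 to 25.9%) and 3 of 180 pseudogenes (1.67%, 0.345 to 4.79%). All 3 of those pseudogenes, with signals of 93.4 to 178, were more than 1 kb from any tRNA gene. Without the pseudogenes within 1 kb of a tRNA gene, 43 of 175 (24.6%) had a joint region. The intervals of tRNA genes and pseudogenes do not overlap, and no test of the difference was run. The joint list holds background regions, so these are shares with a region and not shares bound.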
